A study of Mus musculus with 13 samples.

Results

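The 6 libraries of Whsc1-/- B cells carried replicate numbers 1 to 6, and the comparison described here set Whsc1-KO replicates 4 to 6 (3 libraries) against Whsc1-KO replicates 1 to 3 (3 libraries), out of 13 libraries in all. The members were taken by their labels, and the test took in every gene that reached 10 normalized counts in 3 or more of these 6 libraries. The labels give no treatment, date or batch that separates the numbers, and the division was proposed with earlier results known in which these libraries stood apart. The 7 WT libraries, numbered 1 to 7, served as reference. WT replicates 4 to 7 against 1 to 3 gave the same contrast of replicate numbers, with no library in common with the Whsc1-KO comparison. Whether the genotypes shared culture days or batches is not in the labels. Sex did not go with replicate number in the same way in both genotypes, as given below.

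All groups shared the strain (C57BL/6), the cell source and the stimulus, and differed by label in genotype and replicate number only. Fetal liver cells of Whsc1-/- or WT littermate embryos had been transferred into RAG1-KO mice after lethal irradiation, because loss of Whsc1 is lethal before birth. RAG1-KO hosts make no mature B or T cells of their own, but they keep spleen stroma and any other blood cells that outlive the irradiation. RNA of cells other than B and T cells thus cannot be assigned to donor or host here. B cells were enriched from spleen by magnetic removal of CD43-positive cells and cultured with lipopolysaccharide (LPS) at 25 µg/ml for 48 h, and the series' text calls the libraries independent biological replicates. Ages, the number of donors and the dates of the cultures are not in the labels used here.

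Whsc1, also called Nsd2, encodes a methyltransferase of histone H3 at lysine 36 (H3K36) that marks transcribed chromatin. LPS acts on resting splenic B cells through TLR4; it makes them enlarge, divide, switch from IgM and IgD mainly to IgG3 and IgG2b, and in part turn into antibody-secreting plasmablasts. Cells that become plasmablasts lower surface molecules of the naive cell such as IgD, CD22, CD23 and MHC class II. A spleen cell suspension also holds macrophages of the red pulp and marginal zone, granulocytes and red cells, which the CD43 step removes only in part.

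The libraries held between 38881663 and 53019516 recovered reads in genes. Markers of mature B cells were high in all 13 libraries: Cd79a, a signalling chain of the B cell receptor, had 62536, 55396 and 59814 normalized counts in Whsc1-KO replicates 4 to 6, 49638, 57025 and 60536 in Whsc1-KO replicates 1 to 3, and 61910 to 94372 in WT, while the T cell gene Cd3e did not pass 2.66 in any of the 13 (both genes named after their values were seen). Each is a single gene, and the mature B cell list and the 14 T cell and NK cell genes tested are given below. Sex differed within the set: Xist, the RNA that coats the inactive X chromosome of females, had 95284 and 93009 normalized counts in Whsc1-KO replicates 4 and 5 but 33.2 in replicate 6, and 31.7, 50.6 and 33.5 in replicates 1 to 3. The Y-linked gene Ddx3y had 0, 0 and 5209 in replicates 4 to 6 and 5223, 5771 and 6520 in replicates 1 to 3. Whsc1-KO replicate 6 was thus the one library of its set that matched replicates 1 to 3 in sex. Alone against replicates 1 to 3 it gave 599 genes higher and 595 lower, where a single library is assumed to vary like the others. In WT the arrangement was the reverse: replicates 1 to 3 were all Xist-high, as were 4 and 5, while replicates 6 and 7 were Xist-low. A sex score from Xist and Y-linked genes was therefore added to a fit over all 13 libraries as an alternative. Where it moved a list's count of 3 or more members by over 1.5 times, both counts are given.

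Whsc1 (chromosome 5, 33820725 to 33897975, plus strand, GRCm38) was checked first, as the targeted gene. It had 5139, 5261 and 4842 normalized counts in Whsc1-KO replicates 4 to 6, against 4419, 3733 and 3978 in Whsc1-KO replicates 1 to 3 and 5537 to 7459 in WT. All 6 Whsc1-KO libraries lay below all 7 WT libraries, and within Whsc1-KO the sets did not overlap. The log2 fold change between the sets was 0.33 (SE 0.07, limma adjusted p = 0.00997), and this difference was larger than that between WT replicates 4 to 7 and 1 to 3 by 0.57 (limma adjusted p = 0.0032). Since reads are summed over all exons, these levels say nothing of the deleted part.

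Much of the transcriptome differed between the replicate sets of Whsc1-KO and little of it between those of WT. Of 14138 genes tested with limma, 38.8% were called in Whsc1-KO: 2992 (21.2%) were higher and 2500 (17.7%) lower in replicates 4 to 6 at an adjusted p under 0.05. At a change of 2-fold or more, 662 were higher and 582 lower, and the median log2 fold change of all genes was 0.02. The filter alone forces some of these calls: 186 genes reached 10 counts in 3 libraries only within replicates 4 to 6, and 166 of them were called higher, while 129 did so only within replicates 1 to 3, and 94 of those were called lower. The 3 libraries of one set lay all above or all below the other set for 53.1% of genes. Most genes named below were chosen by smallest adjusted p or largest change in this same comparison. That their sets do not overlap thus follows in large part from the choice. A first principal component of the 6 libraries held 65.4% of the variance and placed replicates 4 to 6 at -50.7, -52.6 and -39 and replicates 1 to 3 at 48.2, 43.2 and 51.

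In WT the same contrast of numbers called 27 of 14138 genes (0.191%), 15 higher and 12 lower in replicates 4 to 7, with 2407 at an unadjusted p under 0.05 by limma and 14 higher and 15 lower by edgeR. The WT contrast borrows its spread from 7 libraries of mixed sex, and with the spread shared over all 13 libraries it called 167 and 205. The median size of the difference was 0.28 on the log2 scale in Whsc1-KO and 0.15 in WT. Across genes the differences in Whsc1-KO and WT had a Pearson's r of 0.006 and a Spearman's rho of -0.012, over libraries that are not shared; genes are not independent replicates. Of the genes higher in Whsc1-KO replicates 4 to 6, 39.8% were also on the positive side in WT replicates 4 to 7, against 48.6% of all genes, and of the lower genes 53.4% were on the negative side, against 51.4%.

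The test of the difference itself, the interaction of genotype and replicate set, called 3693 genes (26.1%), 2166 (15.3%) with a more positive and 1527 (10.8%) with a more negative difference in Whsc1-KO than in WT by limma. With the sex score in the fit these counts were 1619 and 888. The Xist-high libraries lie in the later set of Whsc1-KO and mostly in the earlier set of WT, so sex enters this contrast. It held 1859 of the genes called higher and 1245 of those called lower in Whsc1-KO in the same direction, and 2 and 0 in the opposite direction; the fits share the Whsc1-KO libraries, so this is a count and not separate evidence. The few genes that moved alike in both genotypes, named after their values were seen, included Aldh1l2 and Cth, enzymes of mitochondrial folate and cysteine metabolism. Aldh1l2 had 164, 144 and 146 normalized counts in Whsc1-KO replicates 4 to 6 and 577, 643 and 582 in Whsc1-KO replicates 1 to 3, and 222 to 255 in WT replicates 4 to 7 against 649 to 770 in WT replicates 1 to 3. Both genotypes thus had a step in the same direction with no overlap, of -1.98 in Whsc1-KO and -1.53 in WT on the log2 scale (limma adjusted p = 6.74e-05 and 0.00549). Cth had a log2 fold change of -1.51 in Whsc1-KO and -1.54 in WT. Ifit1bl1, an interferon-induced gene, went the other way, at -1.83 in Whsc1-KO and 1.04 in WT.

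**Figure D1:**
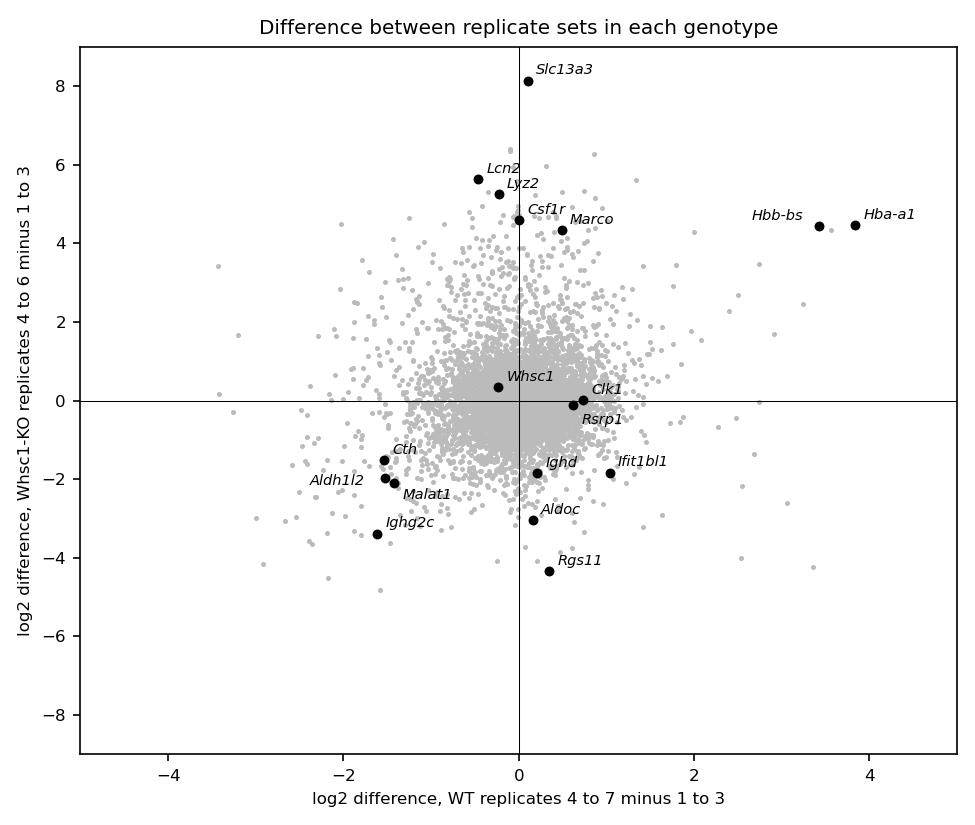
Difference between replicate sets for each of 14122 genes with a unique symbol: log2 difference in Whsc1-KO (replicates 4 to 6 minus 1 to 3) on the vertical axis against the log2 difference in WT (replicates 4 to 7 minus 1 to 3) on the horizontal axis, with 7 genes outside the axes. Black points carry gene names. Aldh1l2, Cth, Malat1, Hba-a1 and Hbb-bs lie off both axes, while Lyz2, Csf1r, Marco and Aldoc lie within 0.49 of 0 for WT.

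Genes of macrophages and other myeloid cells were higher in Whsc1-KO replicates 4 to 6. Lyz2 (chromosome 10, 117277331 to 117282321, minus strand), which encodes the lysozyme of macrophages and granulocytes, had 10168, 10272 and 7385 normalized counts in Whsc1-KO replicates 4 to 6, against 203, 344 and 193 in Whsc1-KO replicates 1 to 3 and 49.2 to 207 in WT. Every library of replicates 4 to 6 lay above every other library by more than the whole spread of those others, a log2 fold change of 5.26 ± 0.23 (SE; adjusted p = 3.92e-05 by limma). Csf1r, the receptor for the growth factor of macrophages, had 453, 525 and 457 in replicates 4 to 6, against 14.5, 31.1 and 14.5 in replicates 1 to 3 and 8.4 to 31.6 in WT, a log2 fold change of 4.60 ± 0.29 (SE; adjusted p = 8.07e-05 by limma). Marco (chromosome 1, 120474538 to 120505024, minus strand), a scavenger receptor of marginal zone macrophages, had 2106, 1379 and 538 in replicates 4 to 6 and 40.7, 83.4 and 53.5 in replicates 1 to 3, with 13.2 to 75.8 in WT. Its log2 fold change was 4.33 (SE 0.48, limma adjusted p = 0.000563), and within replicates 4 to 6 it varied more than Lyz2 or Csf1r. The differences of all 3 genes were larger than those in WT, by 5.49, 4.60 and 3.84 on the log2 scale (limma adjusted p = 0.000198, 0.000488 and 0.00452). In bulk RNA, fewer cells of a type and less RNA per cell cannot be told apart.

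**Figure D2:**
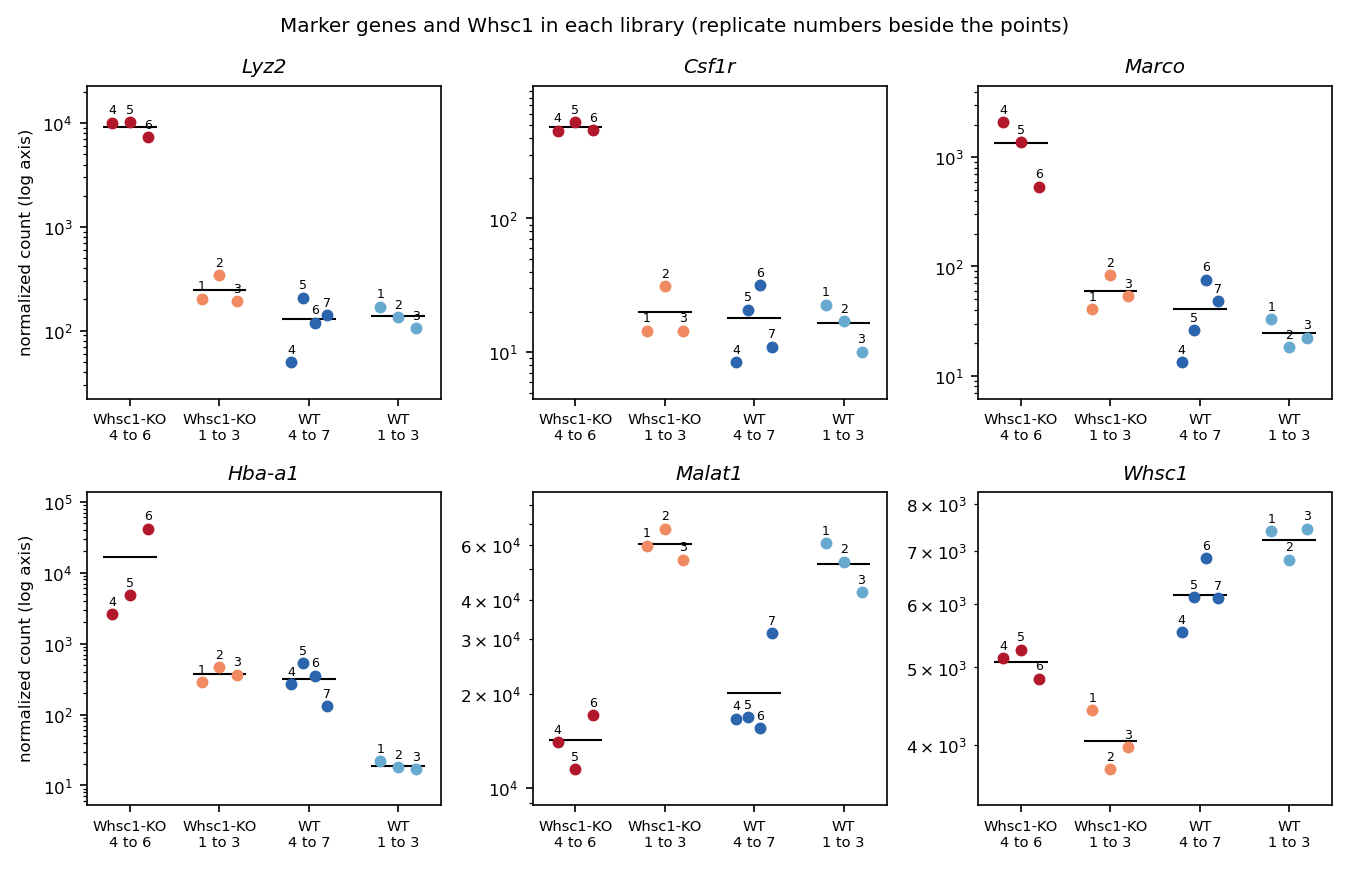
Normalized counts (log axis) of the 5 marker genes and Whsc1 in each of the 13 libraries, as points with the replicate number beside them and a line at the mean of each set. Lyz2, Csf1r and Marco are high in Whsc1-KO replicates 4 to 6 alone; Malat1 is lower, and Hba-a1 higher, in the later numbers of both genotypes.

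Of 32 tested pan-myeloid and monocyte genes, 23 were higher and 0 lower in Whsc1-KO replicates 4 to 6, beside 21.2% and 17.7% of all genes. The median log2 fold change was 2.25, beside 0.02 for all genes. Of the 32, 6 were tested only because of their level in replicates 4 to 6 and had to differ, and 3 listed genes were not tested. The summed level of the list was 35571 to 37643 normalized counts in replicates 4 to 6, 20832 to 21629 in replicates 1 to 3 and 18104 to 23633 in WT. Fcer1g, a signalling chain of Fc receptors, had 663, 748 and 616 in replicates 4 to 6 and 56.1, 84.3 and 73.6 in replicates 1 to 3. Sirpa, an inhibitory receptor of phagocytes that binds CD47, had 1801, 1878 and 1660 in replicates 4 to 6 against 444, 554 and 517 in replicates 1 to 3. Ms4a6d, a membrane protein of monocytes and macrophages, had 435, 500 and 388 in replicates 4 to 6 against 42.5, 47 and 31.2 in replicates 1 to 3. Neither set overlapped the other for any of these 3 genes, which were chosen by smallest adjusted p in this comparison. Adgre1, which encodes the macrophage antigen F4/80, had 1773, 1836 and 1818 in replicates 4 to 6, 822, 589 and 488 in replicates 1 to 3, and 70.8 to 339 in WT, so here Whsc1-KO replicates 1 to 3 also lay above all WT libraries (named after its values were seen).

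Macrophage and complement genes of the red pulp and marginal zone showed the same step: of 21 tested, 15 were higher and 1 lower (median log2 fold change 2.92), beside 21.2% and 17.7% of all genes. Of the 21, 3 were tested only through replicates 4 to 6. The summed level was 23529 to 30300 in replicates 4 to 6, 12921 to 15620 in replicates 1 to 3 and 12730 to 15085 in WT. C3, the central protein of complement, had 804, 1051 and 1183 in replicates 4 to 6 and 67, 101 and 68 in replicates 1 to 3. Nr1h3, the oxysterol receptor LXR alpha, had 285, 263 and 307 in replicates 4 to 6 against 18.1, 29.3 and 23.4 in replicates 1 to 3. Hmox1, which breaks down heme, had 3470, 3371 and 4155 in replicates 4 to 6 against 347, 690 and 454 in replicates 1 to 3. The sets did not overlap in any of these genes, which were chosen by smallest adjusted p. Their libraries within replicates 4 to 6 were close to each other. Treml4, a receptor of splenic macrophages and dendritic cells, had 308 reads over replicates 4 to 6 and 1 read over replicates 1 to 3, a ratio of 326 after scaling (95% exact counting interval 58 to 12900). Treml4 was tested only through replicates 4 to 6. Other defining genes were near absent: 4 of the 9 untested members, Cd209b, Hpgd, C6 and Vsig4, had no read in any Whsc1-KO library, and Timd4 did not pass 9.34 (these named after their values were seen).

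Granulocyte genes were mostly not tested: 16 of 23 stayed under the filter, among them Ly6g, at most 0.91 in Whsc1-KO, and S100a9, at most 4.15 (named after their values were seen). Of the 7 tested, 4 were higher and 0 lower, beside 21.2% and 17.7% of all genes. Among the 7, 1 gene, S100a8, was tested only through its level in replicates 4 to 6 and had to differ. Lcn2, which binds bacterial iron carriers, had 817, 1302 and 555 in replicates 4 to 6, against 19, 13.3 and 15.6 in replicates 1 to 3 and 7.2 to 40.1 in WT. The metalloproteinase gene Mmp9 had 328, 280 and 201 in replicates 4 to 6 against 32.6, 38.2 and 25.6 in replicates 1 to 3. Mmp8, the neutrophil collagenase, had 282, 290 and 128 in replicates 4 to 6 against 6.34, 27.5 and 3.35 in replicates 1 to 3. S100a8, a calcium-binding protein of granulocytes, had 47 reads over replicates 4 to 6 and 0 over replicates 1 to 3, at least 16.6-fold higher against a floor of 3 reads over the set. In the list of granulocyte genes the summed level was 1599 to 2564 in replicates 4 to 6, 546 to 1271 in replicates 1 to 3 and 517 to 1127 in WT.

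Hemoglobin genes were higher in Whsc1-KO replicates 4 to 6 too, but with a large spread. Hba-a1 (chromosome 11, 32283511 to 32284465, plus strand), an alpha-globin gene, had 2580, 4801 and 41774 normalized counts in replicates 4 to 6, against 283, 469 and 366 in Whsc1-KO replicates 1 to 3, and 130 to 529 in WT replicates 4 to 7, against 17.1 to 21.8 in WT replicates 1 to 3. Replicate 6 lay far above the rest of its set, yet no library of replicates 4 to 6 overlapped replicates 1 to 3; the log2 fold change was 4.46 (SE 0.88, limma adjusted p = 0.0062). WT showed a step in the same direction, of 3.84 (limma adjusted p = 0.0249), and the interaction was 0.62 (limma adjusted p = 0.701). Hbb-bs, a beta-globin gene, had 5579, 10154 and 78000 in replicates 4 to 6 and 725, 1033 and 581 in replicates 1 to 3. Of 14 tested red cell and erythroblast genes, 6 were higher and 0 lower (median 0.89), beside 21.2% and 17.7% of all genes. The summed level was 20534 to 203666 in replicates 4 to 6, 9730 to 10659 in replicates 1 to 3 and 8866 to 11881 in WT. Gata1, the erythroid transcription factor, did not pass 3.73 in a Whsc1-KO library (named after its values were seen). Alpha-globin genes have near-identical copies, so reads may be split between them.

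Other blood lineages were mixed in direction. Of 14 tested T cell and NK cell genes 3 were higher and 0 lower, beside 21.2% and 17.7% of all genes, so the number higher was near that share. Without replicate 6 the number higher was 0, and without replicate 2 or 3 it was 1. The summed level of the list was 2913 to 4357 normalized counts in replicates 4 to 6, 3872 to 6708 in replicates 1 to 3 and 2045 to 2598 in WT. Il7r, the receptor for interleukin-7, had 71.5, 93.2 and 80.9 in replicates 4 to 6 and 12.7, 44.4 and 31.2 in replicates 1 to 3. Its limma adjusted p, 0.0195, was 0.0625 without replicate 5 and 0.0507 without replicate 6. Of 4 tested platelet and megakaryocyte genes 2 were higher and 0 lower: Itgb3, integrin beta 3, had 3435, 4483 and 3751 in replicates 4 to 6, against 1269, 1091 and 758 in replicates 1 to 3 and 1765 to 4228 in WT, so that here replicates 1 to 3 were the set outside WT. Pf4, platelet factor 4, had 73.7, 39.1 and 146 in replicates 4 to 6 against 9.96, 28.4 and 8.92 in replicates 1 to 3. Of 12 tested dendritic cell genes 2 were higher and 6 lower (3 lower with the sex score), with Batf3, a factor of cross-presenting dendritic cells, at 9.76, 10.2 and 15.6 in replicates 4 to 6 and 70.6, 72.8 and 66.9 in replicates 1 to 3. The cytokine receptor gene Flt3, also expressed by progenitors, had 2207, 2805 and 3045 in replicates 4 to 6 against 6014, 5746 and 4994 in replicates 1 to 3. None of 2 tested mast cell genes passed, and of 4 tested endothelial and stromal genes 0 were higher and 1, Pdgfrb, a receptor of stromal cells, was lower (102, 119 and 147 in replicates 4 to 6 against 443, 296 and 259 in replicates 1 to 3). The limma adjusted p of Pdgfrb, 0.0027, was 0.164 with the spread of all 13 libraries and 0.125 with the sex score. Because myeloid and red cell genes separate the same libraries as every gene group below, their part in those results was not tested.

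Malat1 (chromosome 19, 5795690 to 5802672, minus strand), a long noncoding RNA kept in the nucleus, was the marker that fell. It had 14068, 11524 and 17103 normalized counts in Whsc1-KO replicates 4 to 6, against 59499, 67515 and 53746 in Whsc1-KO replicates 1 to 3. WT had 15553 to 31217 in replicates 4 to 7 and 42340 to 60633 in replicates 1 to 3, so the low and the high libraries went by replicate number in both genotypes, without overlap. The log2 fold change was -2.09 in Whsc1-KO (SE 0.14, limma adjusted p = 0.00011) and -1.42 in WT (limma adjusted p = 0.0739), and the interaction, -0.68, did not pass (limma adjusted p = 0.137). Other noncoding RNAs of the list did not follow as one: of 16 tested, 5 were higher and 5 lower (median 0.02), beside 21.2% and 17.7% of all genes. The number higher was 2 with the sex score and 3 without replicate 3, 4 or 5. Kcnq1ot1, a nuclear RNA of an imprinted locus, had 739, 725 and 749 in replicates 4 to 6 and 1464, 1047 and 1354 in replicates 1 to 3, whereas Dleu2, the host of a tumour-suppressor microRNA cluster, had 1934, 1913 and 1655 in replicates 4 to 6 against 1249, 1312 and 1475 in replicates 1 to 3. Host genes of small nucleolar RNAs had 1 higher and 5 lower of 12. The number lower was 2 with the sex score, and 3 with the spread of all 13 libraries or without replicate 4 or 5. Replication-dependent histone genes, most of which lack the poly-A tail these libraries select for, had 1 higher and 0 lower of 21 tested, with 49 untested.

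Among the genes with the largest increases were those of transport, cell contact and metabolism, beside further myeloid genes. Slc13a3, a cotransporter of dicarboxylates, had 1088, 963 and 542 normalized counts in Whsc1-KO replicates 4 to 6, against 4.53, 3.55 and 0 in replicates 1 to 3 and 0 to 2.1 in WT, a log2 fold change of 8.14 ± 0.63 (SE; adjusted p = 0.000162 by limma). Gja1, the gap junction protein connexin 43, had 456 reads over replicates 4 to 6 and 2 over replicates 1 to 3, a ratio of 241 (95% exact counting interval 66.3 to 2000). Both genes were near absent outside replicates 4 to 6, and with Gda below they were tested only through that set. Ldhb, a subunit of lactate dehydrogenase, had 1745, 2646 and 745 in replicates 4 to 6 and 21.7, 13.3 and 22.3 in replicates 1 to 3, with 571 in WT replicate 5 and 4.8 to 15.7 in the other WT libraries. Gda, guanine deaminase, had 169, 221 and 135 in replicates 4 to 6 against 2.72, 1.78 and 1.12 in replicates 1 to 3. Lox, which crosslinks collagen, had 415, 449 and 174 in replicates 4 to 6 against 7.24, 10.7 and 5.58 in replicates 1 to 3. The complement receptor gene C5ar1 had 246, 216 and 198 in replicates 4 to 6 against 7.24, 10.7 and 0 in replicates 1 to 3. Clec4a1, a lectin receptor of myeloid cells, had 332, 337 and 317 in replicates 4 to 6 against 6.34, 7.99 and 11.2 in replicates 1 to 3. Pid1 and the pseudogene Tmem181b-ps each had a log2 fold change of 5.30; for the pseudogene it was replicates 1 to 3 (6.34, 52.4 and 5.58) that lay under WT (160 to 398), while replicates 4 to 6 had 552, 494 and 575, and its reads may be shared with its parent gene.

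The genes with the largest decreases differed in which of the Whsc1-KO sets lay outside WT. Rgs11, a regulator of G protein signalling, had 13, 9.32 and 8.3 normalized counts in Whsc1-KO replicates 4 to 6, against 468, 214 and 112 in replicates 1 to 3 and 155 to 624 in WT, a log2 fold change of -4.35 ± 0.48 (SE; adjusted p = 0.00058 by limma). Rapgef4, an exchange factor activated by cyclic AMP, had 11.9, 21.4 and 22.8 in replicates 4 to 6 against 189, 155 and 238 in replicates 1 to 3, with 293 to 939 in WT. Tlr3, the sensor of double-stranded RNA, had 20.6, 18.6 and 36.3 in replicates 4 to 6 against 151, 146 and 147 in replicates 1 to 3, with 149 to 297 in WT. In these 3 genes replicates 4 to 6 lay far below every WT library. Trabd2b, a membrane protease that acts on Wnt proteins, instead had 17.4, 6.52 and 21.8 in replicates 4 to 6, against 132, 237 and 184 in replicates 1 to 3 and 1.04 to 19.2 in WT, so the set outside WT was replicates 1 to 3. Zfp532 and Xlr3b, a zinc finger gene and an X-linked gene with close copies, had log2 fold changes of -4.52 and -4.82 and wide ranges in WT, of 1.04 to 96.2 and 1.05 to 628. Clec2f, a lectin gene, had 15.2, 5.59 and 34.2 in replicates 4 to 6 against 110, 92.3 and 114 in replicates 1 to 3, with 33.6 to 89.8 in WT.

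Genes of the mature B cell surface were lower in Whsc1-KO replicates 4 to 6. Of 38 tested mature B cell identity genes 2 were higher and 25 lower (median log2 fold change -0.38, beside 17.7% of all genes lower). Cd22, an inhibitory coreceptor, had 22116, 24623 and 19959 normalized counts in replicates 4 to 6, against 52441, 49242 and 58838 in replicates 1 to 3 and 71162 to 83450 in WT, a log2 fold change of -1.27 ± 0.10 (SE; adjusted p = 0.000161 by limma). H2-Aa and H2-Eb1, chains of MHC class II, had log2 fold changes of -0.79 and -0.72; H2-Aa had 36889, 36171 and 34339 in replicates 4 to 6 against 61174, 58671 and 65345 in replicates 1 to 3. Ly86, the MD-1 partner of the LPS-responsive receptor RP105, had 4969, 5274 and 4988 in replicates 4 to 6 against 8269, 7746 and 7665 in replicates 1 to 3. The order was the same in these genes, chosen by smallest adjusted p, with replicates 4 to 6 lowest without overlap. For Cd22 and both MHC genes replicates 1 to 3 lay between replicates 4 to 6 and WT.

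Follicular and marginal zone genes were mostly lower, at 1 higher and 7 lower of 13 and 6 higher and 16 lower of 25. Beside 21.2% of all genes higher and 17.7% lower, the number of marginal zone and B-1 genes higher was near the share. The median log2 fold changes were -0.66 and -0.49, and 1 of the marginal zone and B-1 genes was tested only through replicates 4 to 6. Ccr6, a chemokine receptor, had 1730, 1647 and 2110 normalized counts in replicates 4 to 6, against 5405, 6964 and 9035 in replicates 1 to 3 and 3564 to 7125 in WT. Fcer2a, which encodes CD23, the low-affinity IgE receptor of follicular cells, had 4185, 6139 and 5056 in replicates 4 to 6 against 12437, 10140 and 12560 in replicates 1 to 3, with 16854 to 38062 in WT. Satb1, a chromatin organizer, had 1724, 2795 and 1793 in replicates 4 to 6 against 5868, 4706 and 6087 in replicates 1 to 3. Among marginal zone genes, Notch2, the receptor that directs cells to that fate, had 7945, 9040 and 8637 in replicates 4 to 6 against 23236, 17559 and 21074 in replicates 1 to 3, a log2 fold change of -1.26 ± 0.10 (SE; adjusted p = 0.000208 by limma). Cr2, the complement receptor CD21, had 2889, 3064 and 3342 in replicates 4 to 6 against 9123, 7805 and 12752 in replicates 1 to 3, with 6280 to 13480 in WT. Nid1, a basement membrane protein, had 694, 444 and 566 in replicates 4 to 6 against 2147, 2160 and 2504 in replicates 1 to 3. S1pr3, a receptor for sphingosine-1-phosphate, had 107, 65.2 and 111 in replicates 4 to 6 against 400, 556 and 812 in replicates 1 to 3. No library of replicates 4 to 6 reached the level of replicates 1 to 3 or of WT in Ccr6, Fcer2a, Notch2, Cr2, Nid1 or S1pr3. Without replicate 4 the number of marginal zone and B-1 genes higher was 2, and with the sex score 3 were higher and 9 lower.

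Early B cell and progenitor genes went in both directions: of 12 tested 7 were higher and 3 lower, beside 21.2% and 17.7% of all genes. Of the 12, 1 was tested only through replicates 4 to 6. Vpreb3, a chaperone of immunoglobulin chains in early B cells, had 2290, 2204 and 2481 normalized counts in replicates 4 to 6, against 947, 1015 and 959 in replicates 1 to 3 and 1172 to 3156 in WT. Cd93, a marker of immature B cells, had 4496, 5488 and 3962 in replicates 4 to 6 against 2175, 1284 and 1297 in replicates 1 to 3, with 3729 to 11037 in WT. The transcription factor gene Sox4 had 359, 440 and 166 in replicates 4 to 6 against 48, 55 and 39 in replicates 1 to 3. For Vpreb3 and Cd93 the set outside the WT range was replicates 1 to 3. Cd34, a marker of stem and progenitor cells, stood at 2909 in Whsc1-KO replicate 1 and at no more than 5.2 in any other library, and was not tested (named after its values were seen).

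**Figure D3:**
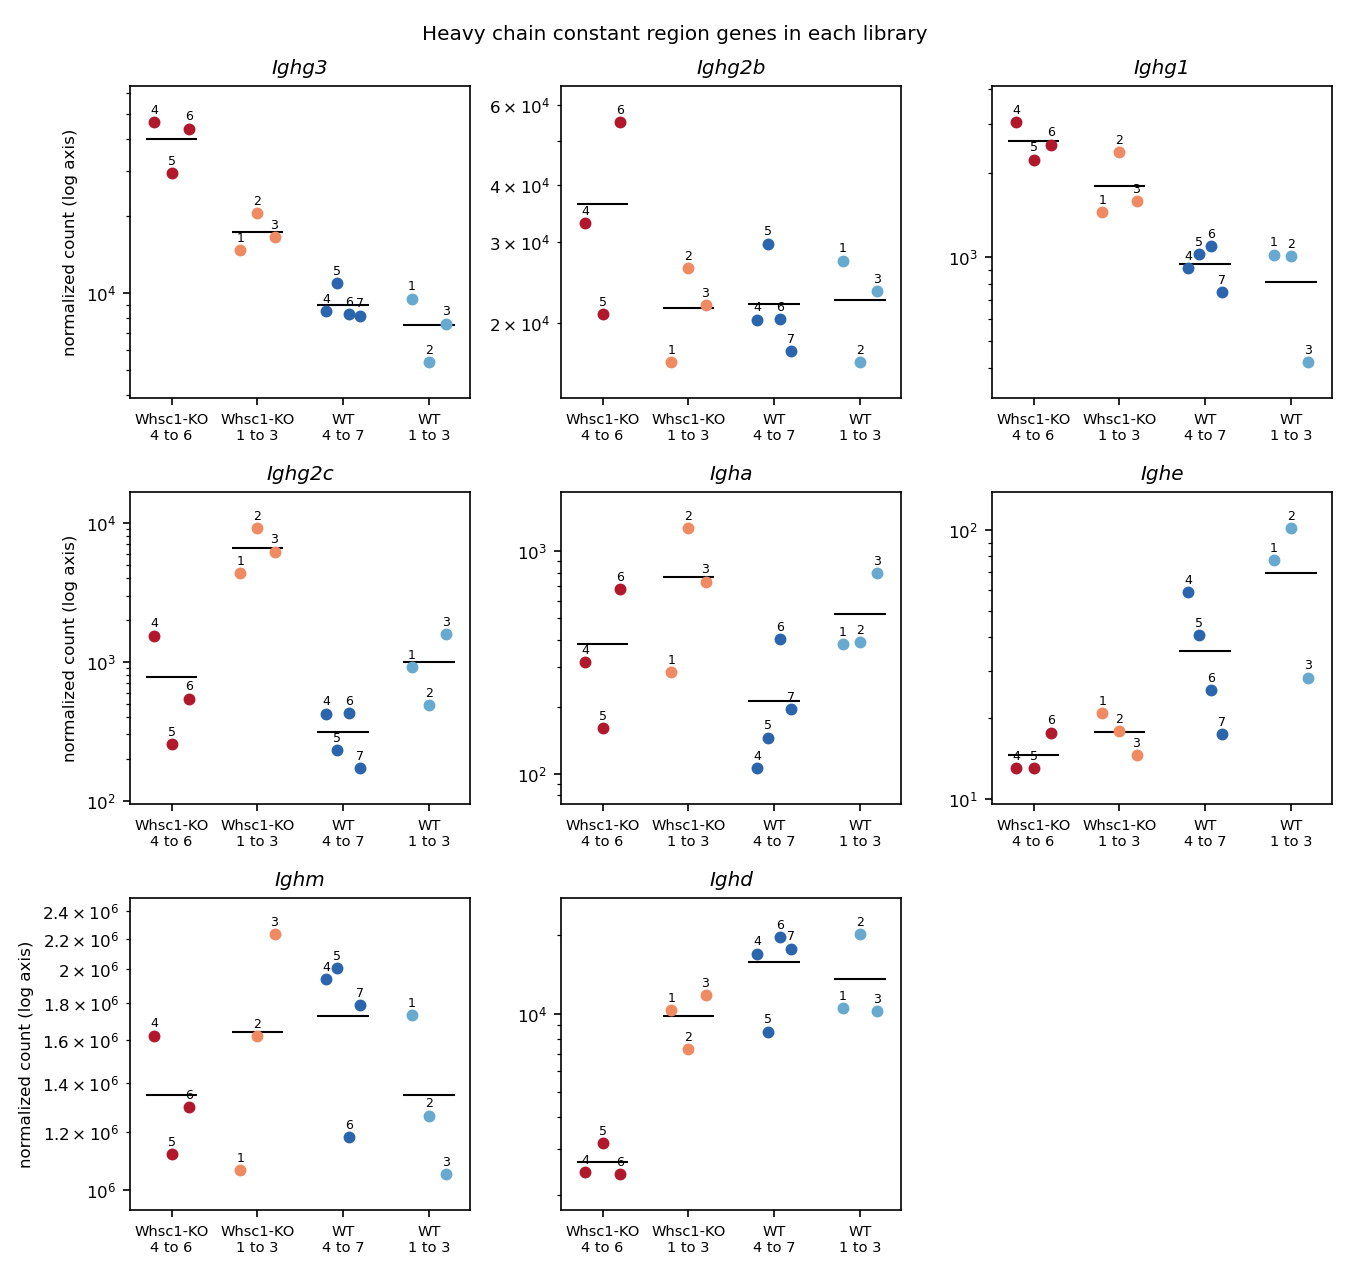
Normalized counts (log axes, each panel on its own range) of 8 heavy chain constant region genes in each library, as points with the replicate number beside them and a line at the mean of each set. Ighg3 is higher, and Ighg2c and Ighd are lower, in Whsc1-KO replicates 4 to 6 than in Whsc1-KO replicates 1 to 3, without overlap.

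Antibody class genes differed between the sets in IgG3, IgG2c and IgD. Ighg3 (chromosome 12, 113356224 to 113361232, minus strand) had 46391, 29399 and 43716 normalized counts in Whsc1-KO replicates 4 to 6, against 14696, 20469 and 16552 in replicates 1 to 3 and 5391 to 10948 in WT. The 3 groups did not overlap, and the log2 fold change was 1.19 (SE 0.18, limma adjusted p = 0.00224; interaction 0.91, limma adjusted p = 0.0363). Ighg2c (chromosome 12, 113285325 to 113288932, minus strand) had 1542, 256 and 544 in replicates 4 to 6, against 4335, 9188 and 6221 in replicates 1 to 3 and 172 to 1587 in WT, so replicates 1 to 3 were the set outside WT (log2 fold change -3.39, SE 0.58, limma adjusted p = 0.00346). Tbx21, the factor T-bet that promotes switching to IgG2c, had 284, 157 and 227 in replicates 4 to 6 against 434, 634 and 786 in replicates 1 to 3 (named after its values were seen). Ighd (chromosome 12, 113406604 to 113416324, minus strand) had 2446, 3174 and 2412 in replicates 4 to 6, against 10278, 7290 and 11787 in replicates 1 to 3 and 8522 to 20228 in WT, a log2 fold change of -1.85 ± 0.18 (SE; adjusted p = 0.000335 by limma). The other classes did not pass. Ighg1 had a log2 fold change of 0.55 (limma adjusted p = 0.0501, 0.00809 without replicate 2, and 0.0118 by DESeq2). Ighg2b had 0.67 (limma adjusted p = 0.138, and 0.0249 without replicate 5). The log2 fold changes of the rest were -0.24 for Ighm, -0.26 for Ighe and -0.98 for Igha. Gene-level counts do not separate germline from switched transcripts, and the gamma genes resemble each other in sequence.

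Plasmablast and antibody secretion genes were 12 higher and 1 lower of 32 (median 0.28), beside 21.2% and 17.7% of all genes. Prdm1, which encodes Blimp-1, the factor that drives secretion, had 16734, 13745 and 14826 normalized counts in replicates 4 to 6, against 8088, 9715 and 11083 in replicates 1 to 3 and 6975 to 15880 in WT. Slamf7, a surface receptor of plasma cells, had 5390, 4817 and 4641 in replicates 4 to 6 against 2684, 3279 and 3533 in replicates 1 to 3. Dnajb11, a chaperone of the endoplasmic reticulum, had 13991, 11911 and 13035 in replicates 4 to 6 against 7865, 10278 and 9570 in replicates 1 to 3. The exception was Zbtb20, a factor of plasma cell survival, with 648, 488 and 586 in replicates 4 to 6 against 2090, 2560 and 2272 in replicates 1 to 3 and 3718 to 6362 in WT. The calls of this list rested on few libraries: 5 genes were higher without replicate 4 and 1 with the sex score in the fit, where the limma adjusted p was 0.266 for Prdm1 and 0.115 for Dnajb11. The interaction was positive for 0 and negative for 2 of its members.

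Of 17 tested germinal center and switching genes 10 were higher and 3 lower (median 0.32), beside 21.2% and 17.7% of all genes. The number lower was near the share of all genes. Polh, the DNA polymerase eta that adds mutations at A and T, had 2858, 2917 and 2843 normalized counts in replicates 4 to 6, against 1706, 1784 and 1772 in replicates 1 to 3 and 1427 to 1745 in WT. The exonuclease gene Exo1 had 1762, 1808 and 1903 in replicates 4 to 6 against 1117, 1158 and 1028 in replicates 1 to 3. Mybl1, a factor of germinal center cells, had 3018, 3821 and 2295 in replicates 4 to 6 against 854, 489 and 455 in replicates 1 to 3. Fas, the death receptor, was lower, with 276, 245 and 238 in replicates 4 to 6 against 409, 420 and 419 in replicates 1 to 3 and 916 to 1556 in WT.

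Of 109 tested heavy chain variable segments 5 were higher and 8 lower, and of 105 kappa segments 1 was higher and 17 lower. Of all genes 21.2% were higher and 17.7% lower, so the number of kappa segments lower was near that share and the other counts were below it. In each list 1 segment was tested only through replicates 1 to 3. Igkv2-109 had 79.1, 48.5 and 41.5 normalized counts in replicates 4 to 6, against 1023, 675 and 1219 in replicates 1 to 3 and 1046 to 3563 in WT. Igkv2-137 had 129, 207 and 47.7 in replicates 4 to 6 against 815, 2334 and 3457 in replicates 1 to 3. Ighv2-7 had 3.25, 6.52 and 1.04 in replicates 4 to 6 against 48, 47 and 64.7 in replicates 1 to 3. In these 3 segments replicates 4 to 6 lay below every WT library. Without replicate 1, 24 heavy chain and 39 kappa segments were lower, and without replicate 2 it was 3 and 11. Heavy chain segments lower were 4 without replicate 3 or 5. Heavy chain segments higher ran from 2, without replicate 2 or 4, to 10, without replicate 3, and were 2 with the sex score or the spread of all 13 libraries. Among 8 light chain constant and lambda genes the smallest limma adjusted p was 0.239, for Iglv3 at a log2 fold change of 0.47. Segments share sequence, so reads may be split between them.

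Cell division genes were higher almost throughout. Of 40 tested G2/M and mitosis genes 39 were higher and 0 lower in Whsc1-KO replicates 4 to 6, beside 21.2% and 17.7% of all genes. The list's median log2 fold change was 0.64, and the interaction was positive in 39. Ect2, which sets the cleavage furrow, had 3863, 4161 and 3934 normalized counts in replicates 4 to 6, against 2233, 2265 and 1976 in replicates 1 to 3 and 1325 to 2107 in WT (log2 fold change 0.89, SE 0.07, limma adjusted p = 0.000183). Cdk1, the mitotic kinase, had 4655, 4892 and 4850 in replicates 4 to 6 against 2998, 3083 and 2803 in replicates 1 to 3, with 1475 to 2715 in WT. Prc1, a protein of the central spindle, had 6821, 7150 and 6790 in replicates 4 to 6 against 4239, 4315 and 3790 in replicates 1 to 3. Ncapg, a condensin subunit, had 6923, 7317 and 6829 in replicates 4 to 6 against 4468, 4359 and 4120 in replicates 1 to 3. In each of these genes, chosen by smallest adjusted p, replicates 4 to 6 lay highest without overlap. Replicates 1 to 3 lay between replicates 4 to 6 and WT in Cdk1 and Prc1, and overlapped WT at one end in Ect2 and Ncapg.

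Of 52 tested G1/S and DNA replication genes 48 were higher and 1 lower (median 0.60), beside 21.2% and 17.7% of all genes, and the interaction was positive in 47. E2f8, a repressor of the E2F family that is itself induced at G1/S, had 3484, 3376 and 3658 normalized counts in replicates 4 to 6, against 1858, 1796 and 1726 in replicates 1 to 3 and 1129 to 1702 in WT. Cdc6, which loads the replicative helicase, had 3773, 3733 and 3952 in replicates 4 to 6 against 1892, 2147 and 1855 in replicates 1 to 3, with 996 to 1800 in WT (log2 fold change 0.96, SE 0.07, limma adjusted p = 0.000155). Mcm2, a helicase subunit, had 10015, 10009 and 10999 in replicates 4 to 6 against 5533, 6152 and 5618 in replicates 1 to 3. Dut, which clears dUTP, had 5009, 5281 and 5380 in replicates 4 to 6 against 2980, 2642 and 2561 in replicates 1 to 3. No library of replicates 4 to 6 overlapped the others in these 4 genes, which were chosen by smallest adjusted p. With any 1 library left out 46 to 48 of the G1/S and 39 of the G2/M genes were called higher, and replicate 6 alone against replicates 1 to 3 called 30 and 25, with medians of 0.60 in both lists.

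Promoter sequence was read for these genes because many moved together, in windows of 300 bases (250 before to 50 after the start) from RefSeq on GRCm38.p6. The E2F motif searched was TTTGGCGC or TTTCCCGC on either strand, and the cell cycle homology region, the site of the MuvB complex, was TTTGAA on either strand. The first was in 14 of 43 G1/S genes with a window (32.6%), against 3.43% of 9785 tested genes; the second was in 25 of 33 G2/M genes (75.8%), against 14.2% of tested genes. The E2F motif was in 1.8% and the homology region in 20.2% of windows of all 27025 symbols. A match of letters is a description and not a site shown to be used. The stretches below are from 3 genes of each list with a match close before the start, called higher with the smallest adjusted p. The counts above took matches anywhere in the window. Motif letters are in capitals with 30 bases on each side, 5′ to 3′ on the gene's strand. Mcm6 and Mcm7 are subunits of the replicative helicase.
Cdc6 (chr11:98907983-98908050, plus strand): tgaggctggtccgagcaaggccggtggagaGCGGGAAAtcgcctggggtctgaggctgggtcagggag
Mcm6 (chr1:128359715-128359845, minus strand): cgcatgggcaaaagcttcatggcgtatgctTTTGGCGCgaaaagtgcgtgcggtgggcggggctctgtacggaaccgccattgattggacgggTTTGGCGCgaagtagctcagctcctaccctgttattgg
Mcm7 (chr5:138172011-138172078, minus strand): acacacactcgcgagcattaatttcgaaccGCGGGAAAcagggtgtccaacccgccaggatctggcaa
Ect2 (chr3:27153957-27154022, minus strand): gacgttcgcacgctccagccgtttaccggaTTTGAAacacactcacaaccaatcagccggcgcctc
Ncapg (chr5:45669865-45669930, plus strand): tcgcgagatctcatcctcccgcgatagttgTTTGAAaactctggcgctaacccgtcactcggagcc
Cdk1 (chr10:69352892-69353013, minus strand): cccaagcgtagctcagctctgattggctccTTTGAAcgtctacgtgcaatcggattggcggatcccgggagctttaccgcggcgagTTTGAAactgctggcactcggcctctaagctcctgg

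Of 29 tested CDK inhibitors and p53 targets 12 were higher and 4 lower (median 0.22), beside 21.2% and 17.7% of all genes. Under the sex score 6 were higher. Cdkn1a, which encodes the inhibitor p21, had 2554, 2493 and 2415 normalized counts in replicates 4 to 6, against 1290, 1420 and 1247 in replicates 1 to 3 and 522 to 910 in WT, so that it went with the division genes in order of level. Gtse1, a regulator of p53 in G2, had 3978, 4258 and 4134 in replicates 4 to 6 against 2218, 2585 and 2241 in replicates 1 to 3. Cdkn2c, an inhibitor of CDK4 and CDK6, had 1182, 1205 and 1069 in replicates 4 to 6 against 694, 809 and 670 in replicates 1 to 3. Sesn1, a stress sensor of the p53 pathway, was lower, with 1629, 1989 and 1439 in replicates 4 to 6 against 3972, 3007 and 3733 in replicates 1 to 3.

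Growth and energy genes split. Of 76 tested nuclear oxidative phosphorylation genes 40 were higher and 5 lower (median 0.25), beside 21.2% and 17.7% of all genes. The number higher was 26 without replicate 5 and 26 without replicate 6, and the number lower was 3 without replicate 2, 4, 5 or 6 and with the sex score. Ndufb4, a subunit of complex I, had 891, 858 and 841 normalized counts in replicates 4 to 6, against 550, 511 and 484 in replicates 1 to 3 and 454 to 490 in WT. Ndufs1, its largest subunit, had 4700, 4722 and 4774 in replicates 4 to 6 against 3483, 3462 and 3258 in replicates 1 to 3. Of the 13 genes of mitochondrial DNA 3 were higher and 1 was lower, beside 21.2% and 17.7% of all genes. The number higher was near that share, and without replicate 5 only 1 was higher. Of 37 MYC targets and genes of ribosome assembly 18 were higher and 0 lower (median 0.26), and 11 were higher without replicate 6 or with the spread of all 13 libraries. Rcc1, which charges Ran for nuclear transport, had 4312, 4540 and 4949 in replicates 4 to 6 against 2736, 3164 and 2930 in replicates 1 to 3. Heat shock genes were 12 higher and 0 lower of 20 (median 0.45), and the chaperone Hsph1 had 5719, 6359 and 7029 in replicates 4 to 6 against 3704, 3953 and 3009 in replicates 1 to 3. Sets did not overlap in any of the 4 named genes, which were chosen by smallest adjusted p, nor in 53.1% of all genes.

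Cytosolic ribosomal protein genes went the other way from the genes that build ribosomes. Of 84 tested 1 was higher and 71 were lower in Whsc1-KO replicates 4 to 6 (median log2 fold change -0.40), beside 21.2% and 17.7% of all genes. Rpl17 had 41985, 43599 and 42950 normalized counts in replicates 4 to 6, against 65406, 63014 and 65227 in replicates 1 to 3 and 66753 to 87907 in WT. Rps14 had 30337, 31284 and 32558 in replicates 4 to 6 against 49242, 48432 and 45116 in replicates 1 to 3. The summed level of the list was 3219076 to 3375310 in replicates 4 to 6, 4199298 to 4573267 in replicates 1 to 3 and 4515325 to 5505457 in WT. The interaction was negative for 36 and positive for 1 of the members. The median stayed between -0.43 and -0.35 in the other scalings and tests tried; with replicate 6 alone it was -0.38, and 12 members were lower.

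Glycolysis and hypoxia genes were lower. Of 32 tested 1 was higher and 23 were lower in replicates 4 to 6 (median log2 fold change -0.68), beside 21.2% and 17.7% of all genes. Aldoc (chromosome 11, 78322968 to 78327781, plus strand), an aldolase, had 507, 590 and 391 normalized counts in Whsc1-KO replicates 4 to 6, against 5286, 3781 and 3268 in replicates 1 to 3 and 4023 to 8674 in WT (log2 fold change -3.04, SE 0.20, limma adjusted p = 9.29e-05). Ankrd37, a target of the hypoxia factor HIF-1, had 215, 160 and 170 in replicates 4 to 6 against 1657, 1583 and 957 in replicates 1 to 3, with 995 to 2786 in WT. Slc16a3, the exporter of lactate, had 219, 247 and 173 in replicates 4 to 6 against 2271, 1993 and 596 in replicates 1 to 3, with 851 to 4235 in WT. Eno2, an enolase, had 335, 300 and 326 in replicates 4 to 6 against 774, 631 and 671 in replicates 1 to 3. In all 4 genes replicates 4 to 6 lay below every other library of both genotypes. Replicate 3 was the lowest of replicates 1 to 3 in Aldoc, Ankrd37 and Slc16a3. With the sex score in the fit 11 members were lower, and with replicate 6 alone 6 were, at a median of -0.58.

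The hypoxia response core, ACGTG or GCGTG on either strand, was in the promoter window of 27 of 30 members (90%), against 67.3% of the 9785 tested genes and 46.7% of all symbols, so most windows hold this short motif. Shown are the 3 members called lower with a match close before the start and the smallest adjusted p, under the same limits as above. Motif letters are in capitals, and where copies overlap they form a single run. Pdk1 encodes the kinase that keeps pyruvate out of the mitochondrial cycle.
Aldoc (chr11:78322993-78323057, plus strand): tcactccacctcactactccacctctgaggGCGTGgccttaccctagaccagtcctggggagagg
Ankrd37 (chr8:45999822-46000035, minus strand): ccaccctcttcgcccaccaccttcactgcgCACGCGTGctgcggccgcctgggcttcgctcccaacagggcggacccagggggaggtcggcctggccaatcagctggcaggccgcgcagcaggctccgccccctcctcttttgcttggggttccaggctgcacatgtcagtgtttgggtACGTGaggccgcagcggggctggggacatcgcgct
Pdk1 (chr2:71873116-71873180, plus strand): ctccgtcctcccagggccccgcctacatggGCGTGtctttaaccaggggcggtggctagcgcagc

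Other metabolic groups changed in part. Of 25 tested cholesterol synthesis genes 0 were higher and 12 lower (median -0.34), beside 21.2% and 17.7% of all genes, or 5 lower with the sex score. Mvd, of the mevalonate pathway, had 2749, 3050 and 2332 normalized counts in replicates 4 to 6, against 4858, 4336 and 4241 in replicates 1 to 3 and 3635 to 5013 in WT. Nsdhl, a later enzyme of the pathway, had 1445, 1740 and 1199 in replicates 4 to 6 against 2452, 2307 and 2520 in replicates 1 to 3. Its limma adjusted p, 0.00321, was 0.0626 with the sex score. Genes of ATF4 and amino acid stress were 1 higher and 9 lower of 25 (median -0.20), beside 21.2% and 17.7% of all genes. Asns, asparagine synthetase, had 2621, 2869 and 2777 in replicates 4 to 6 against 3759, 4287 and 4249 in replicates 1 to 3. The one that rose was Slc7a11, the cystine importer, with 250, 198 and 257 in replicates 4 to 6 against 50.7, 95 and 110 in replicates 1 to 3. Lysosome and phagosome genes were 7 higher and 9 lower of 28, beside 21.2% and 17.7% of all genes, so the share higher was near that of all genes. Ctsd and Ctsl, cathepsins, and Cd63, a lysosomal membrane protein also high in macrophages, rose by 0.88, 1.26 and 2.22 on the log2 scale, while Ctsh, another cathepsin, had 5477, 5588 and 5281 in replicates 4 to 6 against 9534, 9894 and 9929 in replicates 1 to 3. The myeloid genes above differed between the same libraries, and their part was not tested.

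Interferon response genes were lower, with a difference inside the set. Of 32 tested 0 were higher and 15 lower (median log2 fold change -0.62), beside 21.2% and 17.7% of all genes, and the interaction was negative for 17. Gbp2, a guanylate-binding protein, had 5318, 5644 and 6447 normalized counts in Whsc1-KO replicates 4 to 6, against 17023, 16482 and 16700 in replicates 1 to 3 and 12914 to 21480 in WT (log2 fold change -1.53, SE 0.08, limma adjusted p = 6.74e-05). Ifit3 (chromosome 19, 34583531 to 34588731, plus strand), which blocks viral RNA and has close copies beside it, had 110, 128 and 408 in replicates 4 to 6 against 736, 900 and 783 in replicates 1 to 3. Mx2, an antiviral GTPase, had 283, 395 and 672 in replicates 4 to 6 against 954, 1236 and 878 in replicates 1 to 3. Gbp2 was even within replicates 4 to 6, but replicate 6 was the highest of the set in Ifit3 and Mx2. The mean log2 level of the whole list relative to WT was -1.03, -0.79 and 0.04 in replicates 4 to 6 and -0.03, 0.32 and 0.04 in replicates 1 to 3. The number lower was 29 without replicate 6, 7 without replicate 3, 4 or 5, 5 without replicate 2, 7 with the sex score and 3 with replicate 6 alone, where the median was -0.09. The count was thus smaller without a library of either set, replicate 6 apart. Within replicates 4 to 6 the 2 Xist-high libraries were the low ones, and sex and interferon genes cannot be told apart there.

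The interferon-stimulated response element, GAAANNGAAA on either strand, was in the promoter window of 14 of 22 members with one (63.6%), against 3.87% of tested genes and 3.99% of all symbols. Shown are the 3 members called lower with a match close before the start and the smallest adjusted p, under the same limits as above. The element lies on the opposite strand in each.
Gbp2 (chr3:142620574-142620643, plus strand): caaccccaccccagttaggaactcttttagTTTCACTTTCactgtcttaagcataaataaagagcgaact
Gbp3 (chr3:142559969-142560044, plus strand): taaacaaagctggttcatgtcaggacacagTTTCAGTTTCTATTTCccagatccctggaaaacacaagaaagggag
Ifit3 (chr19:34583343-34583446, plus strand): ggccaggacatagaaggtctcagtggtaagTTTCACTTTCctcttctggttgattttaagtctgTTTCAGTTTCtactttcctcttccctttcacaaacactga

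Genes of NF-kB and inflammation went in both directions. Of 25 tested 9 were higher and 14 lower (median -0.23), beside 21.2% and 17.7% of all genes. The number lower was 7 with the sex score and 9 with the spread of all 13 libraries. Ccl3 and Ccl4, chemokines made by macrophages and activated B cells, were higher: Ccl3 had 513, 578 and 371 normalized counts in replicates 4 to 6, against 112, 118 and 107 in replicates 1 to 3 and 29.1 to 97.7 in WT. Ccl4 had 256, 203 and 192 in replicates 4 to 6 against 37.1, 44.4 and 37.9 in replicates 1 to 3. Tnf had 443, 470 and 473 in replicates 4 to 6 against 770, 798 and 857 in replicates 1 to 3. Its limma adjusted p was 0.000447, or 0.101 with the sex score. Traf1, an adaptor of TNF receptors, had 4346, 4596 and 5139 in replicates 4 to 6 against 7839, 7563 and 7753 in replicates 1 to 3. The summed level of the myeloid list was higher in the same libraries as the chemokines, as given above, and its part was not tested. Of 21 immediate early genes 1 was higher and 9 lower (median -0.52), with 3 lower under the sex score and 5 with the spread of all 13 libraries. Junb, a subunit of AP-1, had 3262, 2560 and 3675 in replicates 4 to 6 against 6819, 8907 and 5699 in replicates 1 to 3. Atf3 had 365, 458 and 541 in replicates 4 to 6 against 1396, 1217 and 890 in replicates 1 to 3.

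Of 16 tested genes of H3K36 methyltransferases and related chromatin factors 4 were higher and 6 lower (median -0.11), beside 21.2% and 17.7% of all genes, so the number higher was near the share of all genes. The list took in Ezh2, Ezh1 and Bmi1, which do not methylate H3K36, so its counts are not of H3K36 genes alone. Ash1l, another H3K36 methyltransferase, had 5040, 5013 and 5106 normalized counts in replicates 4 to 6, against 7913, 6911 and 8004 in replicates 1 to 3 and 8359 to 9252 in WT. Ezh2, the H3K27 methyltransferase of dividing cells, had 9835, 10203 and 10790 in replicates 4 to 6 against 6833, 7491 and 7467 in replicates 1 to 3. Its paralog Ezh1 had 1708, 1702 and 1669 in replicates 4 to 6 against 2245, 2123 and 2342 in replicates 1 to 3. Hoxa genes, near absent in WT, were present in both sets and 3 of 8 tested were higher (median 0.74), beside 21.2% of all genes. With the spread of all 13 libraries or with the sex score 1 was higher. Hoxa9 had 103, 116 and 127 in replicates 4 to 6, 40.7, 44.4 and 32.3 in replicates 1 to 3 and 0 to 2.08 in WT. Hoxa7 had 957, 774 and 841 in replicates 4 to 6 against 477, 670 and 523 in replicates 1 to 3, with 0 to 5.26 in WT. The limma adjusted p of Hoxa9 was 0.0011 and that of Hoxa7 0.0102, and with the sex score they were 0.0538 and 0.629.

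Large chromatin remodelling and regulatory genes were lower, at 1 higher and 26 lower of 40 with a median of -0.29, beside 21.2% and 17.7% of all genes. Macf1, a giant crosslinker of the cytoskeleton, had 25558, 23632 and 24619 normalized counts in replicates 4 to 6, against 51769, 43169 and 46696 in replicates 1 to 3 and 52443 to 69865 in WT. The remodeller gene Chd2 had 6535, 6533 and 6780 in replicates 4 to 6 against 9958, 9451 and 9464 in replicates 1 to 3. Gene span went with direction over all protein-coding genes: of 451 that span over 200 kb, 19.5% were higher and 32.8% lower (median log2 fold change -0.13), while of 3019 under 10 kb, 22.3% were higher and 15.7% lower (median 0.05). In WT the medians of the same span classes were -0.06 and 0.02.

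**Figure D4:**
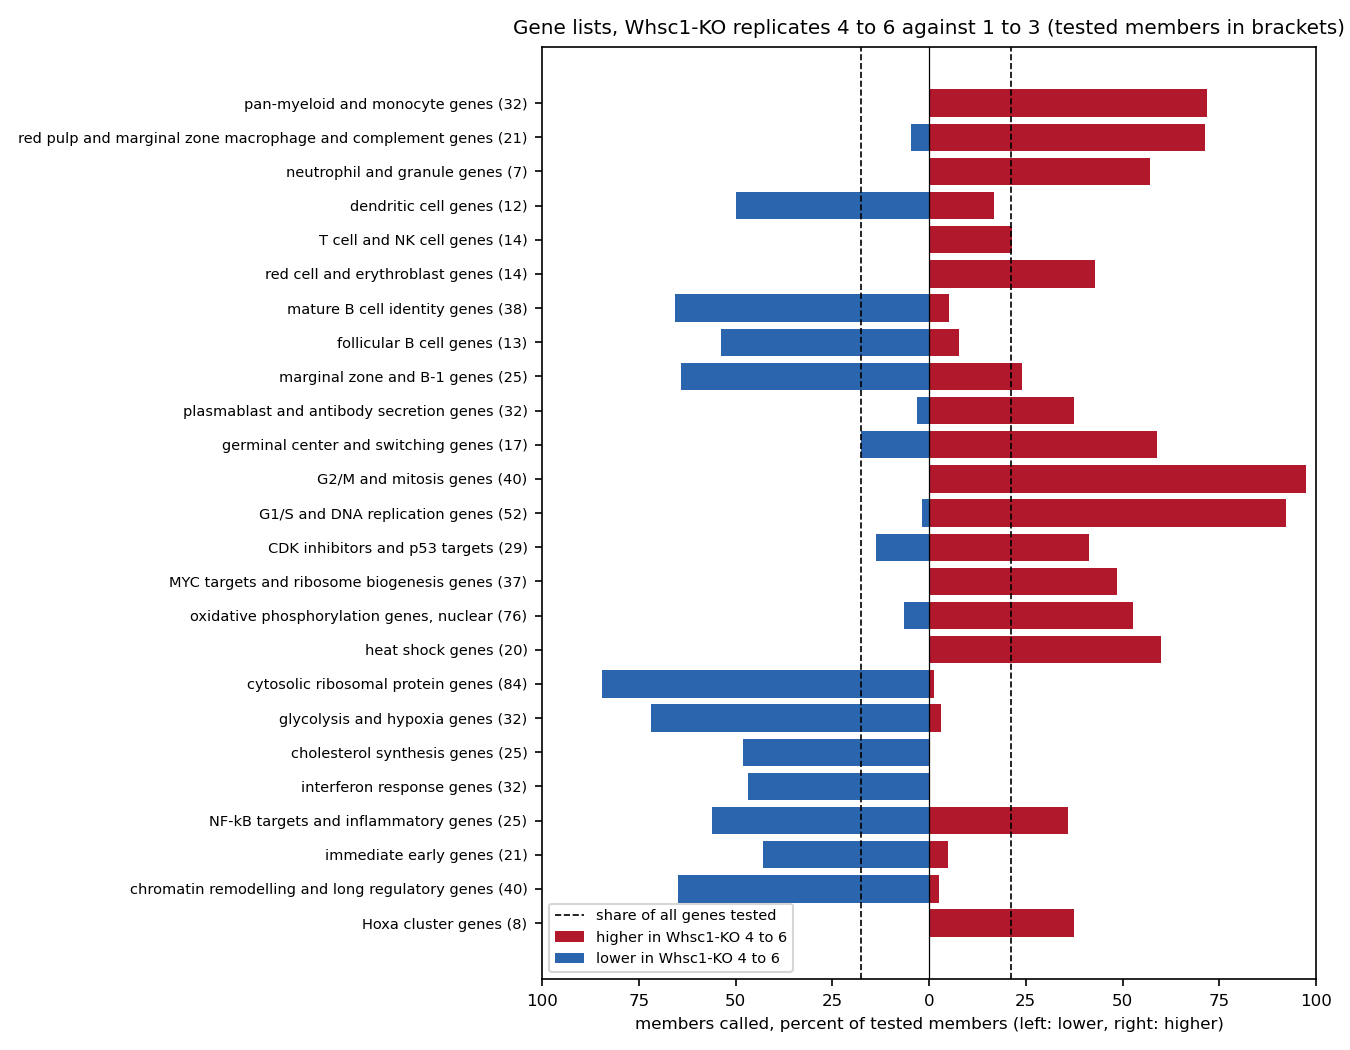
Share of tested members of 25 gene lists called higher (right, red) or lower (left, blue) in Whsc1-KO replicates 4 to 6 than in replicates 1 to 3, in percent, with the number tested in brackets; dashed lines mark 21.2% and 17.7%, the shares of all genes. Division genes lie far to the right, ribosomal protein and mature B cell genes far to the left.

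Against WT, it was mostly replicates 4 to 6 that lay outside. All 3 libraries of replicates 4 to 6 were outside the range of the 7 WT libraries for 2413 of the 2992 higher genes (80.6%) and 1852 of the 2500 lower genes (74.1%), while all 3 of replicates 1 to 3 were outside it for 811 (27.1%) and 719 (28.8%). Whsc1-KO against WT called 8711 genes within the later numbers (4580 higher, 4131 lower) and 3230 within replicates 1 to 3 (1530 higher, 1700 lower) by limma; these comparisons share their Whsc1-KO libraries with the one described here. In the medians that follow, replicates 4 to 6 were set against WT replicates 4 to 7, and replicates 1 to 3 against WT replicates 1 to 3. For the division lists the median log2 difference from WT was 1.16 in replicates 4 to 6 and 0.29 in replicates 1 to 3 for G2/M, and 1.00 in replicates 4 to 6 and 0.18 in replicates 1 to 3 for G1/S. For mature B cell identity it was -0.53 in replicates 4 to 6 and -0.14 in replicates 1 to 3, for ribosomal proteins -0.62 in replicates 4 to 6 and -0.26 in replicates 1 to 3, and for glycolysis and hypoxia -0.88 in replicates 4 to 6 and -0.29 in replicates 1 to 3. Interferon genes had -0.64 in replicates 4 to 6 and 0.24 in replicates 1 to 3, where the WT sets themselves differed by a median of 0.20. Relative to all 7 WT libraries their mean log2 level was -1.03, -0.79 and 0.04 in replicates 4 to 6. It was -0.03, 0.32 and 0.04 in replicates 1 to 3. Plasmablast genes had 0.52 in both, while the median difference was 0.28 between the Whsc1-KO sets and 0.25 between the WT sets.

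**Figure D5:**
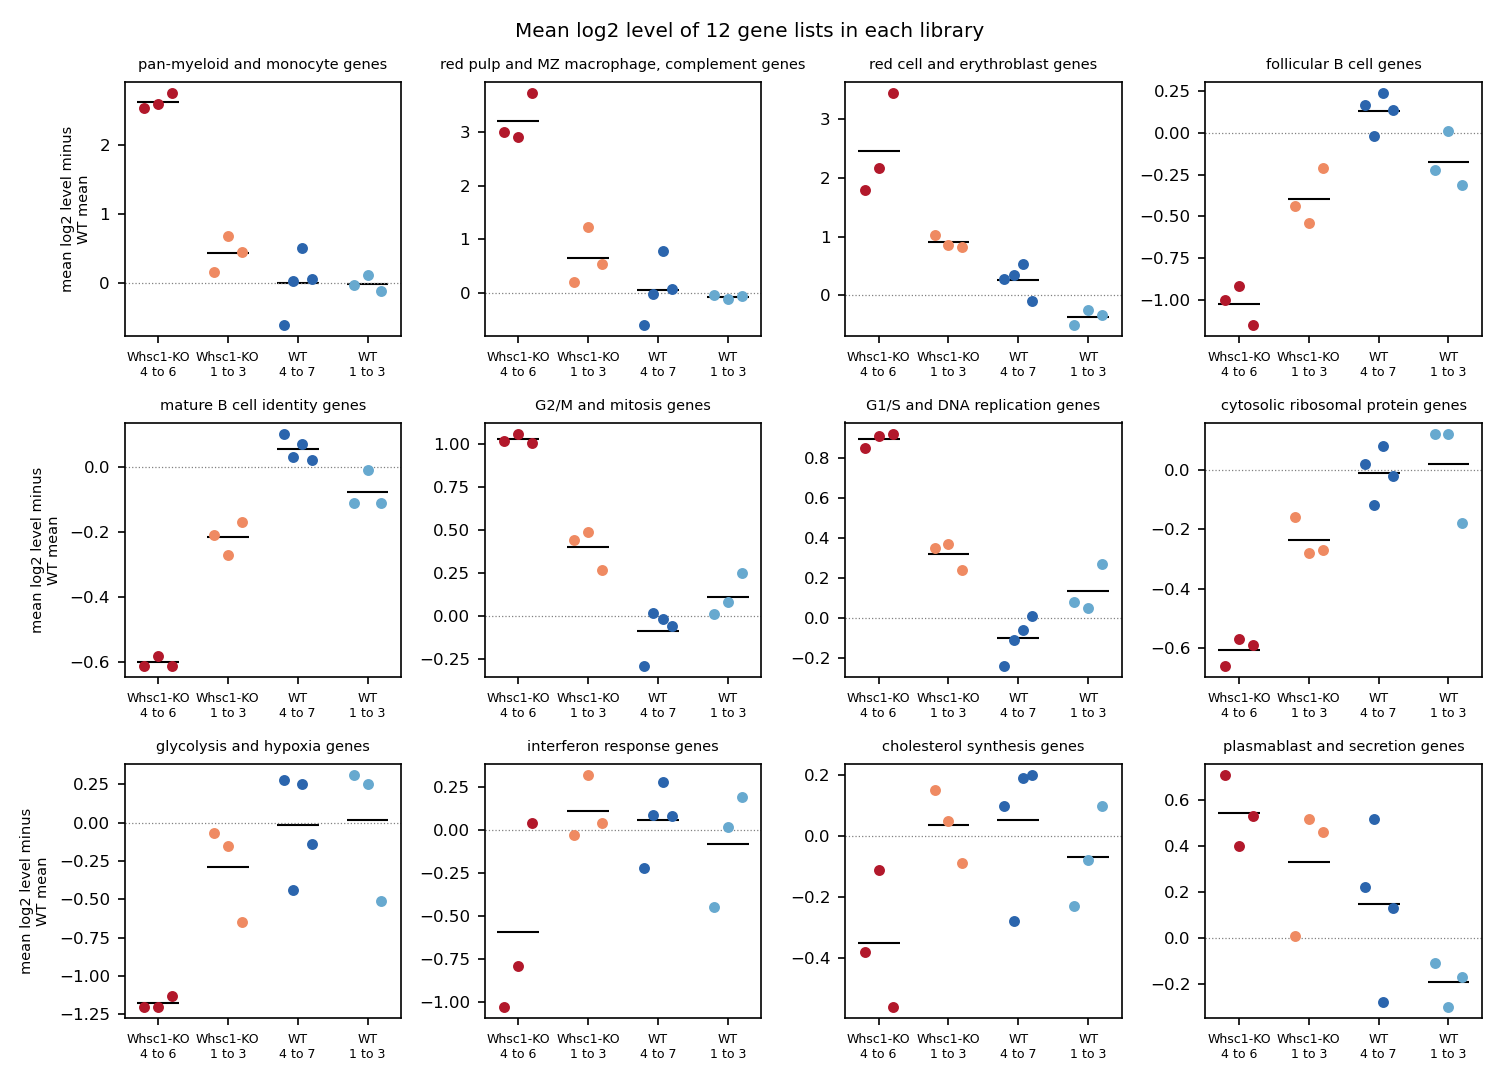
Mean log2 level of 12 gene lists in each library, minus the mean of the 7 WT libraries (vertical axes, each panel on its own range), with a line at the mean of each set and a dotted line at 0. In the division, mature B cell, ribosomal protein and glycolysis panels the 3 Whsc1-KO libraries numbered 4 to 6 lie farthest from WT; in the interferon panel replicate 6 lies near 0, at 0.04.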

How the data were processed

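The series holds poly-A RNA-seq of LPS-stimulated splenic B cells. The deposited table gives normalized counts per gene, a non-negative signal; per the file header and the values, the authors divided gene counts by 1 factor per library. The submitters' processing notes list DESeq2 1.10.1, RSEM 1.2.28 and STAR 2.5.1b, and both mm9 and GRCm38 as builds, without roles. Whole reads could be recovered from the steps between values in 100% of cells, within a tolerance of 0.05, and gave the library depths; they cover counting error only. Libraries were grouped by their labelled genotype and replicate number. Nothing in the labels says which libraries share a culture day, so p-values measure the spread between these libraries.

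Genes that reached 10 normalized counts in 3 or more of the 6 Whsc1-KO libraries were tested with limma 3.58.1 (R 4.3.3, with a mean-variance trend) on log2(normalized count + 1), with Benjamini-Hochberg adjustment over all tested genes at 0.05. Fold changes are on that scale and understate low genes. As alternatives, the recovered reads were tested with DESeq2 1.42.0 and edgeR 4.0.16. The WT contrast used the 7 WT libraries and the interaction all 13. Other alternatives were scalings, filters, pseudocounts, library weights, a sex score, a replicate block and leaving out each library. No pair of the 13 libraries agreed within sampling noise. The scripts were tested on simulated data.

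Named genes were Whsc1, the 5 markers, the 12 largest changes each way with a mean of 100 or more (leaving out antigen receptor segments, predicted genes and sex-linked genes), the 4 or fewer members of smallest adjusted p in each of 41 lists, the heavy chain constant genes, Xist and Y-linked genes. Some genes of the lists are not reported here by name. Members, lists and the rule were chosen with earlier results of these data known. Coordinates are GENCODE M21 on GRCm38, matched for 47224 of 47643 identifiers (99.1%). Summaries and figures were made with matplotlib 3.10.9, pandas 2.3.3, numpy 2.4.6 and scipy 1.17.1 in Python 3.11.15.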

Additional observations from a re-analysis of the deposited data

Results flagged for a closer look

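The difference between replicate sets was not the same in Whsc1-KO and WT, by a test of the interaction across all genes with limma: 2166 genes had a more positive and 1527 a more negative difference in Whsc1-KO. Of 40 genes looked at, 25 passed it. On the log2 scale the interaction was 0.57 for Whsc1, 5.49 for Lyz2, 4.60 for Csf1r and 3.84 for Marco. Among the genes with the largest increases it was 8.04 for Slc13a3, 6.49 for Treml4, 6.45 for Gja1, 5.41 for Ldhb, 6.01 for Gda, 6.11 for Lcn2, 5.61 for C5ar1, 5.65 for Pid1, 4.80 for Tmem181b-ps, 5.04 for Lox and 4.28 for Clec4a1. Among the genes with the largest decreases it was -4.69 for Rgs11, -4.08 for Rapgef4, -3.20 for Aldoc, -3.16 for Ankrd37, -2.26 for Clec2f, -2.91 for Slc16a3, -2.71 for S1pr3 and -2.77 for Tlr3. For antibody classes it was 0.91 for Ighg3 and -2.07 for Ighd. Of 145 other genes named by the rule, most of them chosen by smallest adjusted p in the same Whsc1-KO libraries, 95 passed.

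In 4 of the same 40 genes 1 library stood apart within WT replicates 4 to 7, by Dixon's gap test; chance gives about 1 in 20. Malat1 had 31217 normalized counts in WT replicate 7, Ldhb 571 and Ighg3 10948 in WT replicate 5, each the highest, and Igkc 332516 in WT replicate 6, the lowest.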

How the results depend on the processing

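The counts of genes higher and lower in Whsc1-KO replicates 4 to 6 than in replicates 1 to 3, 2992 and 2500, were 2390 to 3015 and 1804 to 2798 under the other tests, scalings, filters, pseudocounts, weights and the sex score, and 2121 to 2817 and 1786 to 2255 with 1 library left out. They were 1696 and 1327 at an adjusted p under 0.01, 662 and 582 with a log2 change of 1 or more, and, in 2 alternatives chosen after seeing the data, 3602 and 2051 scaled by total reads and 599 and 595 with replicate 6 alone, where fewer libraries enter. WT replicates 4 to 7 against 1 to 3 gave 15 and 12, 167 and 205 with the spread of all 13 libraries, and 0 to 23 and 0 to 22 with 1 library left out. The interaction gave 2166 and 1527, 1619 and 888 with the sex score, and 1583 to 2248 and 1092 to 1686 with 1 library left out. Xist reversed to -0.59 with the sex score, which is built from sex-linked genes. Of 185 named genes 159 were called; of these none changed sign under any setting tried, 19 lost the call under another setting, 6 with 1 library left out and 39 with replicate 6 alone. Of the 26 named genes not called, 8, Xist among them, changed sign under 1 or more settings.

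Within the sets the numbers 1 to 6 did not match Whsc1-KO libraries to WT libraries of the same number. Correlations of same-numbered deviations from the set mean ran from -0.029 to 0.213. No Whsc1-KO library correlated best with the WT library of its own number. Whsc1-KO replicates 4, 5 and 6 correlated best with WT replicates 5, 4 and 7, which match them in Xist level. Deviations from a set mean cannot show what a whole set shares, so a batch shared by the later or earlier numbers was not tested. With the number as a replicate block the interaction called 1653 and 1056 genes. Depth, 38881663 reads or more, limits only genes of few reads.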

Other observations

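Single libraries stood apart in genes of other lineages that were not tested, named after their values were seen. Prtn3, proteinase 3 of granulocyte precursors, had 4.34, 3.73 and 4.15 normalized counts in Whsc1-KO replicates 4 to 6 and 566, 0.89 and 2.23 in replicates 1 to 3, and replicate 1 was also the library with 2909 for Cd34. Gzmb, granzyme B of killer lymphocytes, had 0, 0 and 0 in replicates 4 to 6 and 0, 18.6 and 115 in replicates 1 to 3. By chromosome, the share of genes higher in replicates 4 to 6 ran from 17.3% on chromosome 7 to 25.3% on chromosome 18, and the share lower from 14.4% on chromosome 10 to 21.7% on chromosome 1.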
